A study of Mus musculus with 9 samples.

Results

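The genes described here are the dispersed copies of ribosomal RNA genes, which lie outside the tandem arrays. They were taken as all genes of type rRNA in the GENCODE M1 annotation of the mouse genome (mm9) on chromosomes 1 to 19, without the 5S gene cluster on chromosome 8 (126.06 to 126.15 Mb). The rule gave 256 of the 332 annotated rRNA genes, since 51 lie in the cluster and 25 on X and Y. A gene was counted as holding UBTF where the summit of a called peak lay within 1 kb of it. This gave 31 of 116180 peaks in wild type replicate 1, 36 of 184609 in wild type replicate 2, 20 of 78113 in premalignant replicate 1, 60 of 575674 in premalignant replicate 2, 31 of 279068 in malignant replicate 1 and 68 of 563265 in malignant replicate 2.

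UBTF was profiled by chromatin immunoprecipitation and sequencing (ChIP-seq) in primary pre-B cells sorted from bone marrow of C57BL/6 mice. The labels give 1 gate for every stage (high B220, low IgM, low IgD), while the study's methods give it for wild type and premalignant cells and call the malignant cells positive for B220 and negative for IgM and IgD. By the same methods, wild type and premalignant cells came from females and malignant cells from both sexes, so sex and gate cannot be told apart from malignancy. Wild type mice and premalignant Eµ-Myc mice were 4 to 6 weeks old, and malignant Eµ-Myc mice had developed lymphoma by 10 to 20 weeks. Eµ-Myc mice carry, as heterozygotes, a transgene in which an immunoglobulin heavy chain enhancer drives MYC in B cells. Each stage had 2 UBTF libraries, called biological replicates in the study's methods, and the 3 input samples were not analysed here. Peak lists hold no expression values, so the labelled cell type was not checked against its markers. The depth of the libraries is unknown, and the lists fall into a pair of kinds that cross the stages. Peaks as narrow as 240 to 260 bp were called in wild type cells and in premalignant replicate 1, called the narrow set here. The lower limit of width was 670 to 800 bp in premalignant replicate 2 and in malignant cells, called the wide set.

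UBTF is an HMG-box protein that binds along the rDNA repeats transcribed by RNA polymerase I, where it keeps the chromatin open. The 5S rRNA is the exception among ribosomal RNAs. It is made by RNA polymerase III from its own genes, whose promoter lies inside the transcribed sequence and is bound by TFIIIA, and in the mouse these genes form an array on chromosome 8. Copies elsewhere in the genome carry the same name in annotations, but many are degenerate sequences derived from 5S RNA and are not known to be transcribed.

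The name rRNA gene covered sequences of very different likeness to the clustered gene. By name, 243 members were 5S, 2 were 5.8S and 11 carried clone names. They were 37 to 148 bp long, with a median of 114 bp, and each autosome held 8 to 21 of them. Identity, the share of the clustered gene's 119 bases matched in a local alignment, had a median of 59.7% and ranged from 14.3% to 96.6%. A copy of part of the gene thus scores low even where that part matches closely. Only 13 members reached 90%, 59 lay from 70% to under 90%, 153 from 50% to under 70%, and 31 under 50%. No member was identical to the clustered gene. Outside any other gene lay 134 members, 115 were in introns and 7 overlapped exons, and 3 were within 1 kb of a protein-coding gene start.

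The copies on which the results turn are intergenic, intronic and exonic and lie on different chromosomes (mm9). The reference for identity was the 5S gene sequence shared by 32 of the 51 clustered genes. Summits on the gene body were found in several libraries at n-R5s33 on chromosome 16, n-R5s194 (chr3:4338998-4339116, plus strand), n-R5s185 (chr4:53873524-53873642, plus strand), n-R5s71 (chr11:74133294-74133412, plus strand), n-R5s88 (chr9:102030218-102030335, plus strand) and n-R5s46 (chr14:37669115-37669230, minus strand). n-R5s151 on chromosome 7, n-R5s28 on chromosome 17 and n-R5s195 (chr3:39534886-39535004, minus strand) are about as alike to the clustered gene but had no summit on the gene body.

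Between 7.42% and 21.5% of the dispersed rRNA genes had a UBTF summit, and as a group they differed from other positions in the genome by no more than the spread between libraries. A summit lay within 1 kb of 28 members in wild type replicate 1 (10.9%, 95% exact Clopper-Pearson interval 7.39% to 15.4%), where 8.51% of all placements of genes of these lengths on the same chromosomes had one, and 8.25% of 4715 other small RNA genes (snRNA, snoRNA, miRNA and misc_RNA). In wild type replicate 2 the number was 29 (11.3%, 7.72% to 15.9%), against 13% of placements and 12.7% of small RNA genes. Premalignant replicate 1 had 19 (7.42%, 4.53% to 11.3%), against 5.68% and 5.45%. Members were above both backgrounds in wild type replicate 1 and premalignant replicate 1, with both backgrounds inside the interval.

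In the wide set the members were below both backgrounds in every list. Premalignant replicate 2 had 52 members with a summit (20.3%, interval 15.6% to 25.8%), where placements gave 26.6% and small RNA genes 24.5%. Malignant replicate 1 had 25 (9.77%, 6.42% to 14.1%), against 14.3% and 12.9%. Malignant replicate 2 had 55 (21.5%, 16.6% to 27.0%), against 27.6% and 25.9%. In all 3 of these lists the placement share lay above the members' interval, which covers counting error only.

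**Figure D1:**
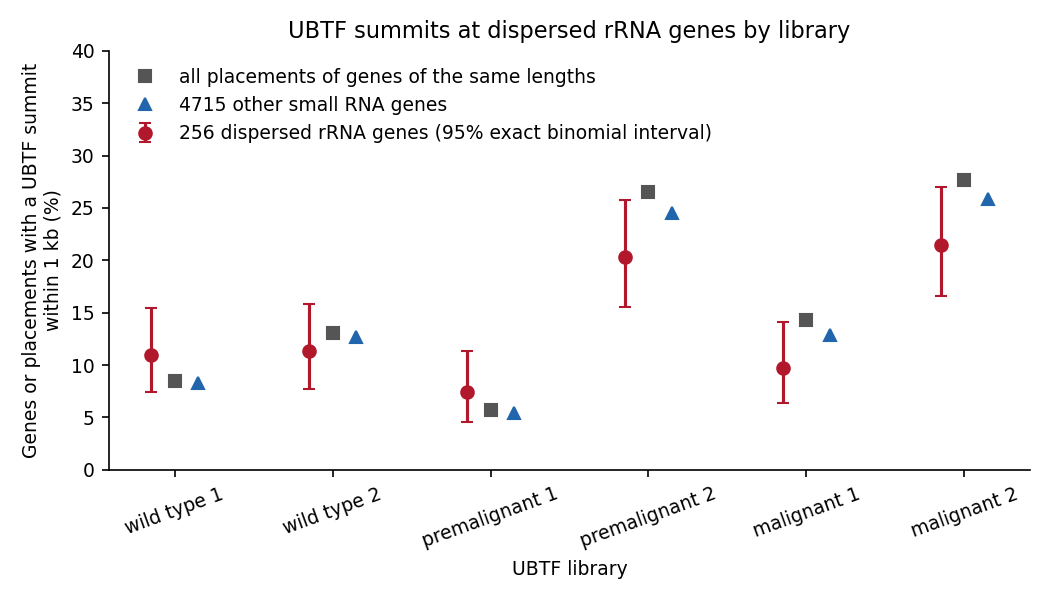
Percent of dispersed rRNA genes (circles, with 95% exact binomial intervals), of all placements of genes of the same lengths (squares) and of other small RNA genes (triangles) with a UBTF summit within 1 kb, by library. Members sit above both backgrounds in wild type replicate 1 and premalignant replicate 1 and below them in the other 4 libraries, between 7.42% and 21.5%.

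Over the 6 libraries the members' share was 2.40 ± 3.85 percentage points below that of placements (mean difference -2.40, SD, n = 6; two-sided exact permutation test flipping the signs of the libraries' differences, p = 0.219, adjusted p = 0.4375 over 4 background comparisons; higher in 2 of 6 libraries). Against other small RNA genes the difference was -1.41 ± 3.09 points (SD, n = 6; the same exact test, p = 0.344, adjusted p = 0.458; higher in 2 of 6). The smallest p this test can give is 0.03125, which becomes 0.125 after adjustment where 1 comparison alone reaches it. All other genes had a summit far more often, at 44.6% and 53.1% in wild type replicates 1 and 2, 32.4% and 54.4% in the premalignant ones and 53% and 59.4% in the malignant ones. The difference from all other genes was -35.9 ± 6.64 points (SD, n = 6; exact permutation test, p = 0.03125, adjusted p = 0.125; lower in every library). It was -8.58 points without genes within 1 kb of a protein-coding start, -19.8 with summits within 5 kb and -22.6 in lists of equal length, with the same exact p in each. Other genes had a median length of 6090.5 bp and members 114 bp, and the part of gene length in the difference was not tested.

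Lists cut to the best 78113 peaks each, the length of the shortest list, gave smaller shares that can be set side by side. Members with a summit then numbered 22 (8.59%) and 21 (8.20%) in wild type replicates 1 and 2, 19 (7.42%) and 5 (1.95%) in premalignant replicates 1 and 2, and 13 (5.08%) and 8 (3.13%) in malignant replicates 1 and 2. Placements gave 5.9%, 6.1%, 5.68%, 5.08%, 5.02% and 5.32% in the same order. The narrow set thus stood above the placements in each of its 3 libraries, malignant replicate 1 within 0.06 points of them, and premalignant replicate 2 and malignant replicate 2 below.

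The members' peaks ranked higher than those of other small RNA genes in 4 libraries and lower in 2, and the mean difference did not pass the test. Peaks were ranked within their list by the caller's score, as the percent of peaks in the list with a lower score (the rank percentile). Median percentiles of the members' peaks were 51.1 and 68.7 in wild type replicates 1 and 2, 56.3 and 32.3 in the premalignant ones, and 50.7 and 33.6 in the malignant ones. Peaks at other small RNA genes had medians of 50.7, 53.6, 52.9, 44.4, 45.9 and 45.6. The mean difference was -0.07 ± 10.6 percentile points (SD, n = 6; two-sided exact permutation test over libraries, p = 1; members higher in 4 of 6). The sign of this difference depended on premalignant replicate 2 and malignant replicate 2. Without the former the difference was 2.35, and without the latter 2.32. It was 15.4 with summits within 250 bp, where 10 to 16 members were left in each library.

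The members most like the clustered 5S gene held summits several times as often as the rest. The 13 members of at least 90% identity had a summit within 1 kb in 51.3 ± 9.32% of cases (mean over 6 libraries, SD), against 11.5 ± 6.14% of the other 243. By library these were 5 and 6 of 13 in wild type replicates 1 and 2, 7 and 6 in premalignant replicates 1 and 2, and 8 in each malignant library, and the share was above that of the other members in all 6. The mean difference was 39.8 ± 10.9 percentage points (SD, n = 6). Members from 70% to under 90% identity had a mean share of 20.3%, those from 50% to under 70% 7.63%, and those under 50% 14.0%. The 6 libraries share 1 set of members, so these are descriptions with no test.

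With summits within 250 bp, which ask for a peak on or beside the gene itself, few of the less alike members kept a summit. Among the 13 most alike, 5 held one in each wild type library, 6 and 5 in premalignant replicates 1 and 2, and 7 and 4 in malignant replicates 1 and 2, a mean of 41.0%. Among the other 243 the mean was 2.88%. Over all members, 11, 10, 11, 16, 14 and 12 had one in wild type, premalignant and malignant replicates in that order (4.30%, 3.91%, 4.30%, 6.25%, 5.47% and 4.69%). Other small RNA genes had one in 3.2%, 4.5%, 2.38%, 8.67%, 4.35% and 9.08% of cases.

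**Figure D2:**
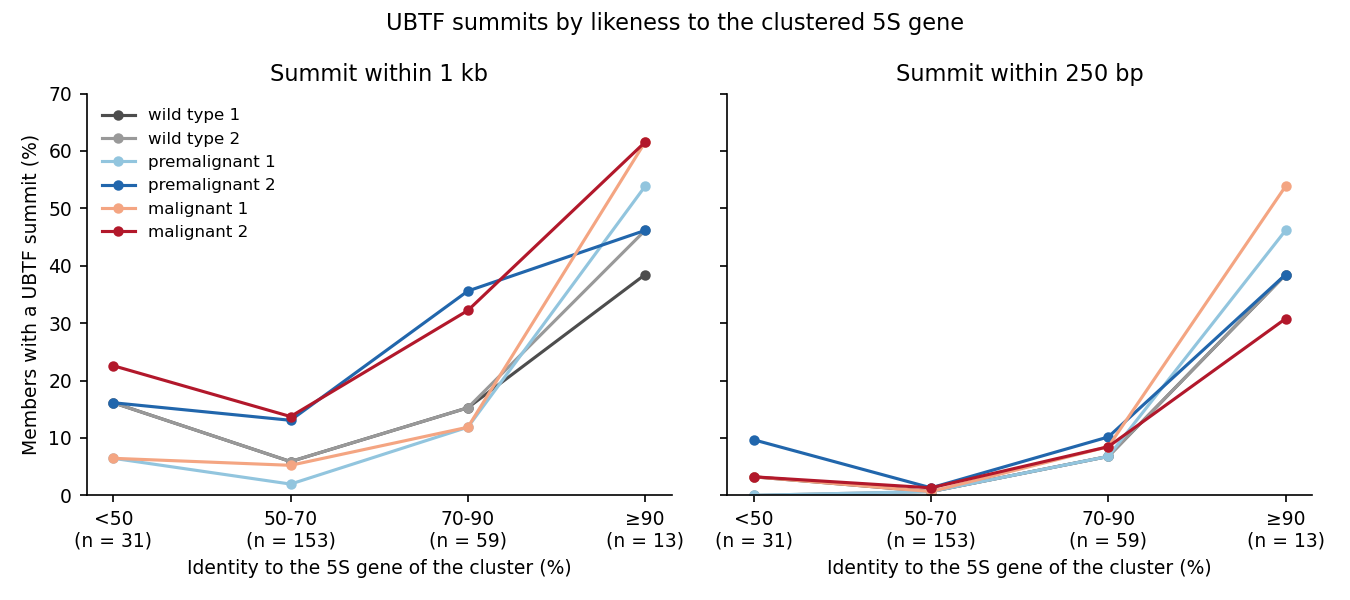
Percent of members with a UBTF summit within 1 kb (left) or 250 bp (right) by identity to the clustered 5S gene, with 1 line for each library and the number of members under each class. In every library the highest share is that of the 13 members of at least 90% identity, at 38.5% to 61.5% within 1 kb and 30.8% to 53.8% within 250 bp.

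Sequence shared exactly with other places in the genome moved with this contrast. Reads were 50 bp long, and 50-base stretches found more than once in mm9 were present in 10 members, of which 8 had a summit in some library (mean share over libraries 55%). The 244 members whose 50-base stretches were all single copy had a mean share of 11.6%, and 2 members were shorter than 50 bp. Of the 13 most alike members, the 5 with repeated stretches had a mean share of 83.3%, and the 8 without had 31.3%. With repeated members left out of both sides, the difference by identity was 20.3 percentage points in place of 39.8. Leaving out the 6 members that share an exact run of at least 50 bases with the clustered gene gave 27.7. The study's methods state default options and no filter on reads with several equal alignments, and the part of such reads in these peaks was not tested.

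Summits lay on the gene body most often in the most alike members. For each member and library the best summit was taken, and its offset measured from the gene centre in the direction of the gene. Of the 40 best summits at the 13 most alike members, 23 were within 100 bp of the centre, and 7 of the 13 members had at least 1. Members of 70% to under 90% identity had 20 of 72 within 100 bp, from 5 of 59 members. These 5 included n-R5s46, n-R5s193 and AC134596.1, which aligned to part of the clustered gene only and are close to it there. Below 70% identity it was 2 of 96, from 2 of 184 members.

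**Figure D3:**
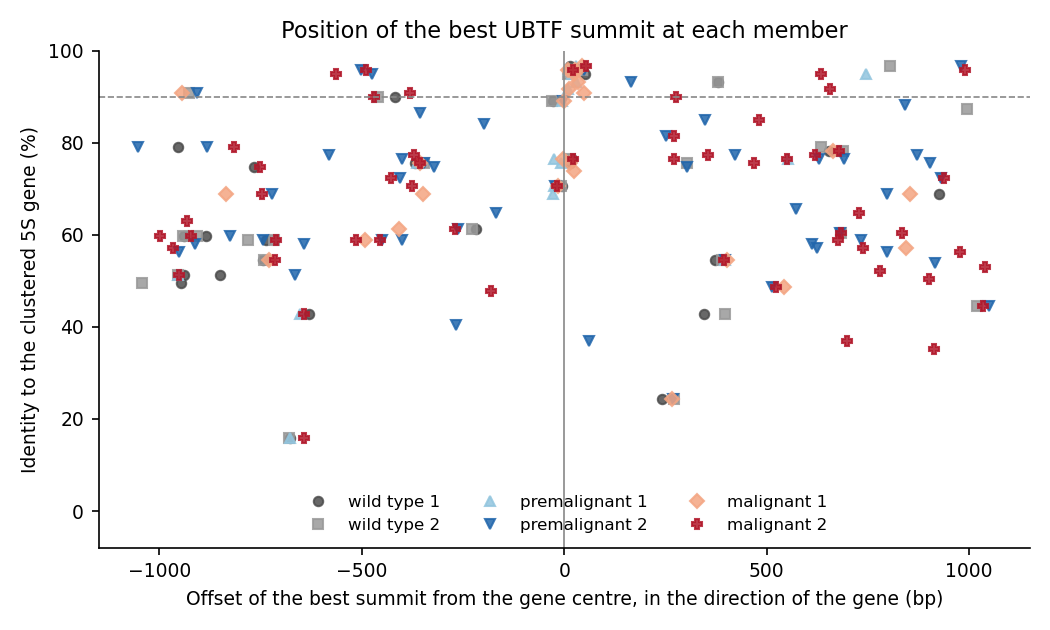
Offset of the best UBTF summit from the gene centre (bp, negative is upstream) against the member's identity to the clustered 5S gene (%), with 1 marker shape for each library and a dashed line at 90% identity. Of 40 best summits above the dashed line, 23 lie within 100 bp of the centre, while below 70% identity 2 of 96 do.

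n-R5s194, an intergenic copy on chromosome 3 with 95.8% identity, had the highest mean rank of all members. Its best summit ranked at percentiles 95.6 and 91.0 in wild type replicates 1 and 2, 99.2 and 98.0 in premalignant replicates 1 and 2, and 99.7 and 97.7 in malignant replicates 1 and 2. All 6 lists thus placed it above the 90th percentile. In premalignant replicate 1 it was number 649 of the list, and in malignant replicate 1 number 775. The summit lay 10 to 15 bp from the gene centre in both wild type libraries, premalignant replicate 1 and malignant replicate 1. In premalignant replicate 2 and malignant replicate 2 the best summit was upstream, at -502 and -489 bp. Malignant replicate 2 also had a summit on the gene, at 22 bp (number 28423 of the list). The other summit in premalignant replicate 2 lay at -298 bp.

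n-R5s185, with 95.8% identity, overlaps an exon of Tmem38b, which encodes an intracellular cation channel. Its percentiles in replicates 1 and 2 were 88.4 and 90.4 for wild type, 97.1 and 28.2 for premalignant and 99.0 and 85.5 for malignant cells. All lists but that of premalignant replicate 2 ranked it high. Here the summit was 22 to 48 bp from the centre in every library. n-R5s33, the most alike member at 96.6%, lies in an intron of Lrch3. It reached percentiles of 51.3 and 81.3 in the wild type lists, 93.4 and 28.2 in the premalignant lists and 94.8 and 67.9 in the malignant lists. A second summit downstream was the better one in wild type replicate 2 (804 bp) and premalignant replicate 2 (979 bp), and in the other 4 the best summit was 15 to 55 bp from the centre.

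n-R5s71, an intergenic copy on chromosome 11 with 95% identity, ranked at 33.6 and 66.4 in wild type cells, at 60.9 and 79.7 in premalignant cells and at 79.5 and 78.9 in malignant cells. Wild type replicate 1 was lowest, both malignant values lay above both wild type values, and the premalignant values overlapped those of each other stage. These values give no order of stages for 1 peak, since the best summit was not the same one in every library and the lists differ in length. As at n-R5s194, the best summit was on the gene (9 to 51 bp) in 4 libraries and upstream in premalignant replicate 2 (-476 bp) and malignant replicate 2 (-563 bp). Premalignant replicate 2 also had a lower summit at 78 bp, number 384515 of its list. In malignant replicate 2 one at 198 bp was number 555933 of 563265.

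n-R5s88, at 89.1% identity in an intron of Ephb1, which encodes an ephrin receptor, was just under the 90% line and had only single-copy 50-base stretches. It ranked at 96.2 and 89.6 in wild type cells, at 98.2 and 55.9 in premalignant cells and at 99.6 in malignant replicate 1, with no summit in malignant replicate 2. The best summit in each of these 5 libraries was within 30 bp of the centre, from -29.5 to 0.5 bp. Both wild type libraries also had a lower summit at -800.5 bp. n-R5s46, an intergenic copy on chromosome 14 with 70.6% identity and no repeated stretch, had percentiles of 89.8 and 89.7 in the wild type lists, 89.4 and 28.5 in the premalignant lists and 94.6 and 85.1 in the malignant lists. Its summits were also on the gene in every library, from -24.5 to -4.5 bp. AC134596.1 on chromosome 12 (121157797 to 121157914, 76.5%) had a summit in 5 libraries, from -25.5 to 20.5 bp, at percentiles of 77.5 and 77.3 for wild type, 86.4 for premalignant replicate 1 and 96.2 and 74.3 for malignant replicates. Peaks centred on the gene were also found at members whose 50-base stretches are all single copy. This count takes exact copies only, so a stretch that differs by a few bases from another place still counts as single copy. The part of reads from such near copies in these peaks was not tested.

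Other members had steady peaks beside the gene rather than on it. The summit at n-R5s37 (chromosome 16, 61372853 to 61372970, 75.6% identity) lay from -368.5 to -345.5 bp in all 6 libraries, at percentiles of 92.1 and 97.1 for wild type, 90.1 and 79.3 for premalignant and 94.8 and 95.2 for malignant replicates. At n-R5s214 (chromosome 1, 83213246 to 83213366, 54.6%) it lay 372 to 402 bp downstream, at percentiles from 4.10 in premalignant replicate 1 to 96.9 in premalignant replicate 2. At n-R5s168 (chromosome 6, 140268151 to 140268254, 78.2%) 5 libraries placed it 653.5 to 687.5 bp downstream. The 5.8S copy on chromosome 6 (94776775 to 94776917), which belongs to the RNA family cut from the RNA polymerase I transcript, had summits in 4 libraries from -680 to -644 bp, outside the gene. The other 5.8S member, n-R5-8s1 on chromosome 18, had none.

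**Figure D4:**
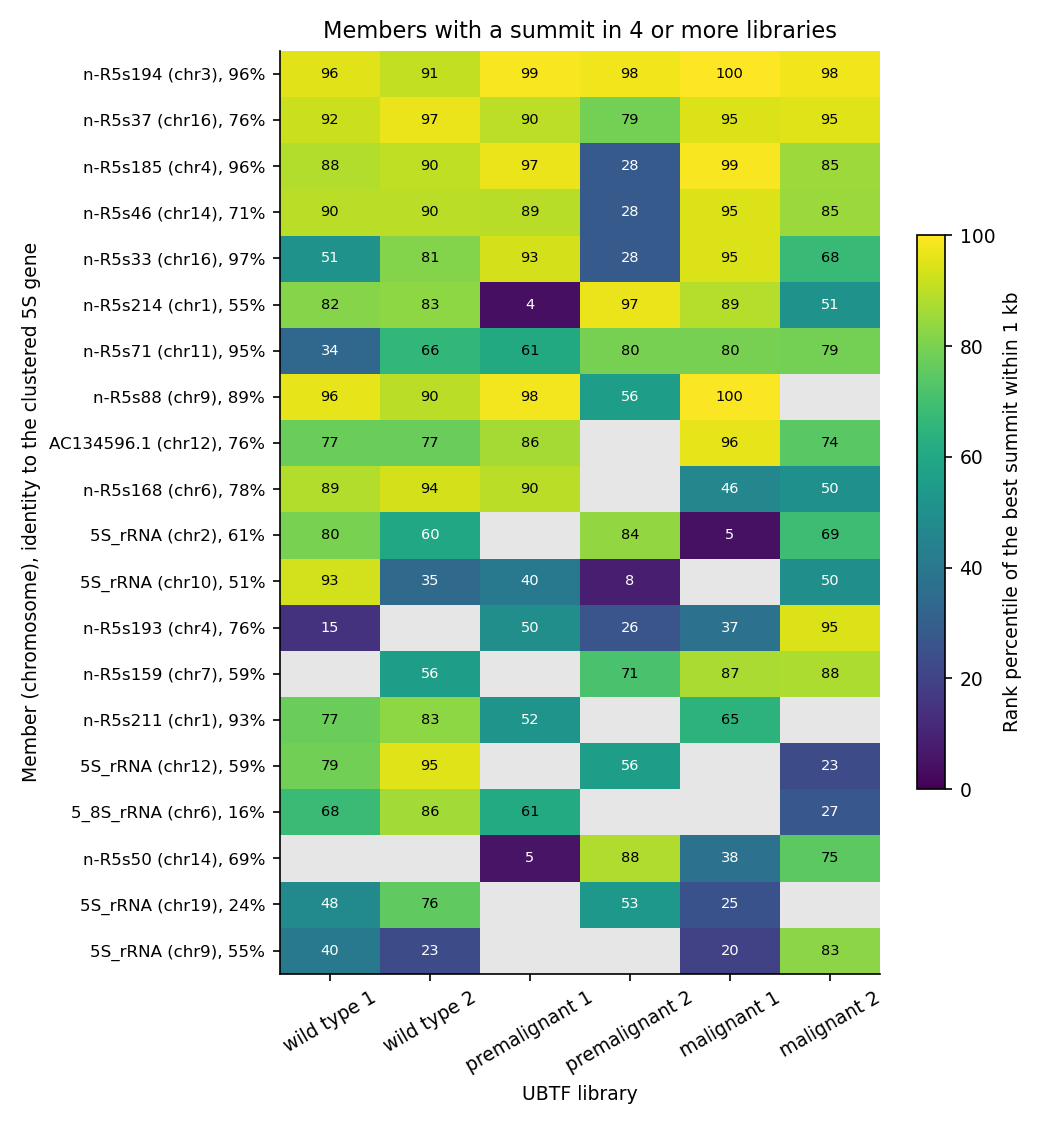
Rank percentile of the best UBTF summit within 1 kb for the 20 members with a summit in at least 4 libraries (rows, with chromosome and identity to the clustered 5S gene), by library (columns). Grey cells hold no summit, and the row of n-R5s194 lies between 91.0 and 99.7 in every library.

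A near-perfect copy did not always hold a peak. n-R5s151 (95.8% identity, intron of Npas1, a neuronal transcription factor) had a single summit, 991 bp downstream in malignant replicate 2, at percentile 26.6. n-R5s28 (95%, intergenic on chromosome 17) had summits in premalignant replicate 1 and malignant replicate 2, at 745 and 635 bp and percentiles of 7.66 and 51.1. n-R5s195 (93.3%) and n-R5s25 on chromosome 18 (93.3%) had none in any list. n-R5s211 (93.3%, chromosome 1, 46431042 to 46431160) had a summit on the gene in 4 libraries. It lay 29 and 33 bp from the centre in premalignant replicate 1 and malignant replicate 1, and 9 and 15 bp in wild type replicates 1 and 2. In both wild type lists another summit, 381 and 380 bp downstream, ranked higher. All 51 genes of the chromosome 8 cluster had a summit within 1 kb in each of the 6 lists.

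The copy with the longest run of clustered sequence ranked in the lower part of the lists where its summit was on the gene. n-R5s193 on chromosome 4 shares 90 bases without a difference, and its 50-base stretches occur a median of 40 times in the genome. It had a summit in 5 libraries, at percentiles of 14.8 for wild type replicate 1, 49.5 and 26.5 for both premalignant lists and 37.4 and 94.8 for both malignant lists. Replicate 1 of every stage had its best summit on the gene, between -8 and 15 bp. In premalignant replicate 2 and malignant replicate 2 it was 903 and 469 bp downstream. n-R5s195, n-R5s25, n-R5s211, n-R5s193, n-R5s50 and the 5.8S copies were singled out after their values were seen.

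Most members had no summit at all. In 173 of 256 members (67.6%) no library had one, against 59.4% of other small RNA genes. A summit in all 6 libraries was found at 7 members (2.73%, against 1.85%) and in at least 4 at 20 members (7.81%, against 6.55%). Summits in the wide set only were found at 44 members (17.2%, against 25.4%) and in the narrow set only at 6 (2.34%, against 3.1%). Wild type replicates shared 22 members, which were 78.6% of those of replicate 1 and 75.9% of those of replicate 2. Premalignant replicates shared 12, 63.2% and 23.1% of their members, and malignant replicates 18, 72% and 32.7%. Of all members, 8.59%, 4.69% and 7.03% were thus shared by the replicates of wild type, premalignant and malignant cells, against 6.53%, 3.1% and 8.78% of other small RNA genes. Premalignant replicate 2 and malignant replicate 2, with lists of similar length, shared 33 (63.5% and 60%).

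Few members had summits in both libraries of 1 stage and in no other. A summit in a single library was found at 31 members (12.1%, against 16.6% of other small RNA genes). Of these, 14 were in premalignant replicate 2 (5.47% of all members, against 6.53%) and 12 in malignant replicate 2 (4.69%, against 6.55%). Both wild type libraries and no other had a summit at 3 members (background in other small RNA genes 0.509%). These were n-R5s191 in an intron of Agbl4 and Bend5 on chromosome 4 (percentiles 34.1 and 58.8), a 5S copy in an intron of the splicing kinase gene Srpk2 on chromosome 5 (47.8 and 18.8) and a 5S copy on chromosome 14 (74345340 to 74345445, 41.0 and 23.4). Both malignant libraries and no other had one at n-R5s204 (90.8% identity, background 0.445%), in an intron of Nusap1, a gene of the mitotic spindle, at percentiles 42.6 and 19.3. Its summit was 49 bp from the centre in replicate 1 and at -380 bp in replicate 2. No member had summits in both premalignant libraries alone (background 0.0848%). In all 4 Eµ-Myc libraries and neither wild type library 1 member had them (background 0.191%), n-R5s50 on chromosome 14 (68.9%), at percentiles 5.33, 87.9, 37.5 and 74.7. These were not 1 shared peak. The best summits lay at -28 and -722 bp in premalignant replicates 1 and 2 and at -835 and -746 bp in malignant replicates 1 and 2. Malignant replicate 1 also had a summit at -4 bp.

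Position relative to other genes and the sequence at the summits are given as descriptions, with no test. Intergenic members had a mean share of 16.3% over libraries, intronic ones 9.86% and the 7 in exons 21.4%, where other small RNA genes had 16.2%, 12.2% and 20.4%. Of the 3 members within 1 kb of a protein-coding start, a 5S copy near Olfr1358 on chromosome 10 (77981368 to 77981483) and n-R5s56 near Gm16416 on chromosome 13 had summits in premalignant replicate 2 and malignant replicate 2 alone, at percentiles 23.8 and 57.8 and 52.8 and 27.2. The third, in an exon of 2610044O15Rik on chromosome 17, had none. Chromosomes 12, 15, 18 and 19 carry rDNA arrays in this study. The 49 members on them had a mean share of 11.2% and the other 207 members 14.1%. Short tandem repeats (at least 40 bp of a unit of 1 to 6 bp within 100 bp of the summit) were found at 35.5%, 33.3% and 25% of member summits in the narrow set and at 20%, 16.1% and 23.5% in the wide set, against 53.6%, 41.7%, 44.9%, 10.4%, 13.3% and 13.7% of all summits of the same lists.

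Whether UBTF at dispersed copies changed with Myc activation and malignancy was compared between stages. The share with a summit averaged 11.1% over wild type libraries, 13.9% over premalignant ones and 15.6% over malignant ones. Premalignant minus wild type was 2.73 ± 6.45 percentage points, malignant minus premalignant 1.76 ± 8.71 and malignant minus wild type 4.49 ± 5.86 (SE, 2 libraries against 2; two-sided exact permutation tests, p = 1, 0.667 and 1, each 1 after adjustment over the 3 pairs). Median rank percentiles averaged 59.9, 44.3 and 42.2. Differences were -15.6 ± 14.9, -2.12 ± 14.7 and -17.8 ± 12.3 percentile points (SE; exact permutation p = 0.667, 1 and 0.3333). With 2 libraries in each stage this test cannot give a p below 0.3333, so it cannot make a call. Both wild type lists belong to the narrow set and both malignant lists to the wide set, so stage and list type cannot be told apart in that pair. In lists of equal length the malignant mean share was below the wild type one, by -4.30 percentage points, and the rank differences from malignant cells changed sign, to 17.5 against wild type and 20.8 against premalignant cells.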

How the data were processed

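UBTF ChIP-seq was analysed from 6 peak lists, 1 for each library, with 2 libraries at each stage. Per the study's methods and the submitters' processing notes, the authors demultiplexed reads with CASAVA 1.8.2, mapped 50-bp paired reads to mm9 plus 1 rDNA copy (bowtie2), dropped duplicates (Picard 1.110) and ran the SPP peak caller on every library. The deposited column used for ranking holds a score of the peak caller, not scaled between libraries. The deposited column used as a q-value holds the false discovery rate (FDR) on a linear scale. The lists precede the authors' test of reproducibility. They give no read counts, so depth is unknown and intervals cover counting error only.

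Positions are in mm9. Summits were set against GENCODE M1 genes and the NCBIM37 sequence with a window of 1 kb. The placement background counts every position at which a gene of each member's length fits without unsequenced bases, outside the chromosome 8 stretch. It replaces random shuffles, and nothing was drawn at random. Identity came from a local alignment (Biopython 1.88) to the commonest gene of the cluster. Copies of 50-base stretches were counted in mm9 on both strands (numba 0.67.0). Backgrounds were compared by a two-sided exact permutation test over libraries and stages by one over 2 against 2 libraries, with Benjamini-Hochberg adjustment and a threshold of 0.05 on the adjusted p. Python 3.11.15, numpy 2.4.6, scipy 1.17.1, pandas 2.3.3 and matplotlib 3.10.9 were used, and the counting and tests were checked on simulated positions with known answers. The labels number replicates 1 and 2 in each stage but give no shared litter, batch or day.

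Named members are the 10 away from gene starts with a summit in the most libraries (ties by mean best percentile), those within 1 kb of a protein-coding start, those with summits in both libraries of 1 stage only, and the 5 most like the clustered gene. Alternative windows, FDR limits, list lengths, merged peaks and left-out libraries were tried, and the closing section gives their effect. The members, classes and lists were chosen with earlier results of these data known. The input samples have no peak list here and were not analysed. The sequences of the 5S genes are not reported here.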

Additional observations from a re-analysis of the deposited data

Results flagged for a closer look

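Among the 25 rRNA genes on X and Y, which enter no comparison, 9 had a summit within 1 kb in malignant replicate 2 (36%). The number was above the 2 found in each wild type library (8%). It was 5 in premalignant replicate 1, and 2 in premalignant replicate 2 and malignant replicate 1. The share over other genes also differed between the lists. On the autosomes, 27.6% of placements and 25.9% of other small RNA genes had a summit in malignant replicate 2, against 8.51% and 13% of placements in wild type replicates 1 and 2. Per the study's methods, malignant cells came from females and males and the other cells from females. The difference was not tested, and the part of list length and sex in it was not tested.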

How the results depend on the processing

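No comparison of the members with a background or between stages passed an adjusted p of 0.05. This held with the chosen settings and under 167 alternatives, of which 17 changed the sign of a background comparison. Many of these tests could not reach that threshold. The smallest p was 0.3333 between stages and 0.5 in pairs. For backgrounds it was 0.0625 with 1 library left out and 0.25 in the narrow or wide set alone. With all 6 libraries it was 0.03125, which became 0.125 after adjustment where 1 comparison alone reached it. The absence of a pass is therefore no evidence that there was no difference. The cause of the changes in sign was not tested. Members minus placements turned to 0.850 percentage points with summits within 5 kb, 0.212 in lists of equal length, 0.0237 with overlapping peaks merged and 0.828 in the narrow set alone. Members minus other small RNA genes turned to 3.45 within 5 kb, 0.851 in lists of equal length and 1.09 in the narrow set. The rank difference from other small RNA genes, -0.07, turned to 15.4 within 250 bp, 15.9 within 500 bp, 4.87 for called regions that overlap the gene, 2.09 and 2.23 for an FDR of at most 0.01 and 0.001, 9.57 in lists of equal length, 5.33 merged and 6.32 in the narrow set. Leaving out 1 library gave -3.11 to 2.35 for it, -3.37 to -1.63 against placements, -2.23 to -0.810 against small RNA genes and -38.1 to -34.5 against all other genes. The last, -35.9, was -8.58 without genes near protein-coding starts, -19.8 within 5 kb and -22.6 in lists of equal length.

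Between stages, 20 of 94 alternatives had another sign. In lists of equal length, malignant minus wild type became -4.30 for the share and 17.5 for the rank, and malignant minus premalignant 20.8 for the rank, which was 14.4 with merged peaks. Leaving out 1 library gave share differences of -3.71 to 9.18 percentage points for premalignant minus wild type, -4.69 to 8.20 for malignant minus premalignant and -1.37 to 10.4 for malignant minus wild type, and rank differences of -27.6 to -3.63, -14.1 to 9.89 and -26.6 to -8.92 in the same order. A paired analysis with a replicate block kept the differences, such as 2.73 for premalignant minus wild type (exact p = 1), and 2 pairs cannot give a p below 0.5.

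For the difference by identity, 39.8 percentage points, alternatives chosen after seeing the data gave 26.4 in lists of equal length, 20.3 without repeated members and 27.7 without those that share an exact run of 50 bases. Leaving out 1 library gave 36.8 to 42.3. Peak lists without read counts limit all these values, since a gene without a summit may lie under the caller's limit in a shallow library.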
